A study of Mus musculus with 5 samples.

Results

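The genes described here are the 8 members of the MHC class II presentation pathway H2-Aa, H2-Ab1, H2-Eb1, Cd74, Ciita, H2-DMa, H2-DMb1 and H2-Oa, chosen by name and not by their values, and all 8 were found among the 16498 genes of the table. They were followed across 10 marker-gated cell types of the atherosclerotic mouse aorta. The data came from 5 droplet 3′ single-cell libraries of live (DAPI-sorted) cells taken from the aortic root to the curvature of mice kept on normal chow for 28 weeks. The libraries formed 2 groups, and every mouse in both lacked Apoe, the lipoprotein ligand whose loss makes mice prone to atherosclerosis: 2 libraries were Oasl1+/+Apoe-/- (called Apoe-/- below) and 3 were labelled Oasl1-/-Apoe-/- (called labelled DKO below). Oasl1 is an interferon-induced member of the oligoadenylate synthetase-like family, deleted in the germline in this strain. Littermates on a C57BL/6 background served as controls in the study. Cells of 6 mice were pooled. The labels do not say whether these are 6 mice a library or 6 a group, so the p-values measure the spread between libraries, which may be technical.

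The comparison asks how the cells of the aorta differ when Oasl1 is missing. The targeted gene was read first. Its UMIs (unique molecular identifiers, the count of captured transcripts) numbered 27 and 16 under the Apoe-/- label and 299, 257 and 315 under the DKO label, so its transcripts were more frequent where the label says that it is deleted. The deletion covers the promoter and exon 2, and 3′ reads lie outside it, so these UMIs check neither the deletion nor the labels, and every direction below is that of the labels. The libraries held 3212 to 4338 cells and 16959976 to 19813039 UMIs, with a median of 4495 to 5186.5 UMIs a cell, and 165 cell barcodes occurred in more than 1 library. Cell types were set by clusters and fixed markers, as given in the methods. In each gated type except monocytes, dendritic cells, NK/T cells and neutrophils, all markers were found in at least 10% of its cells, and in those 4 all but 1 or 2 were. For monocytes 251 of 466 cells and for dendritic cells 199 of 375 cells lay near the limit of their own markers.

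MHC class II molecules display peptides from taken-up proteins to helper T cells. The alpha chain H2-Aa and the beta chain H2-Ab1 make up the I-A molecule, and H2-Eb1 is the beta chain of I-E. The I-E alpha chain H2-Ea was not analysed, so whether I-E forms in these mice was not examined. Alpha and beta chains pair in the endoplasmic reticulum, where the invariant chain Cd74 fills the groove and carries the pair to the endosome. There the heterodimer of H2-DMa and H2-DMb1 exchanges the remnant of Cd74 for peptide, and H2-Oa is a chain of the H2-O heterodimer that restrains H2-DM. Ciita, the class II transactivator, is the coactivator that switches this set of genes on. Dendritic cells and B cells carry class II constantly, whereas endothelial cells, fibroblasts and smooth muscle cells are known to acquire it under interferon gamma. T cells of the mouse do not make it, although all cells can pick up transcripts that float free in the suspension.

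By GENCODE M21 on GRCm38, 6 of the 8 genes lie close together on chromosome 17: H2-Oa (ENSMUSG00000024334, 34092340 to 34095234, plus strand), H2-DMa (ENSMUSG00000037649, 34119541 to 34139101, plus), H2-DMb1 (ENSMUSG00000079547, 34153072 to 34160230, plus), H2-Ab1 (ENSMUSG00000073421, 34257689 to 34269419, plus), H2-Aa (ENSMUSG00000036594, 34282744 to 34287823, minus) and H2-Eb1 (ENSMUSG00000060586, 34305867 to 34316674, plus). Ciita (ENSMUSG00000022504) lies on the plus strand of chromosome 16 from 10480059 to 10528418. H2-Eb1 overlaps Gm20513, Ciita overlaps Dexi, H2-DMa overlaps Brd2 and H2-Oa overlaps BC051537, each on the other strand. Whether the counting used strand is not given in the sources used here, so reads of these pairs may not be told apart. H2-DMb1 has the near-identical neighbour H2-DMb2, and UMIs of this pair could be split or lost.

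The promoters of class II genes carry an X box, bound by the RFX complex, and a Y box, bound by NF-Y, at a nearly fixed spacing, and Ciita acts through the proteins on these boxes. The sequences below show this shared design for an alpha chain, a beta chain and the H2-O chain, which behaved differently in the endothelium. They are from the RefSeq promoter windows (300 bases, of which 250 lie before the start site) on GRCm38.p6, written 5′ to 3′ on the strand of the gene. The capitals mark the letters GNAAC and TGATTGG, a pattern that was chosen after reading these promoters.
H2-Aa (chr17:34287857-34287914, minus strand): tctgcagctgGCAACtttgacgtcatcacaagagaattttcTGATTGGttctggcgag
H2-Eb1 (chr17:34305766-34305822, plus strand): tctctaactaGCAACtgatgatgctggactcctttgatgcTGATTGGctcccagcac
H2-Oa (chr17:34092293-34092350, plus strand): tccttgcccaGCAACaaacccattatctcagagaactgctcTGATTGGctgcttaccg
The first motif began 81, 91 and 76 bases before the RefSeq start site of H2-Aa, H2-Eb1 and H2-Oa, and the second 50, 61 and 45 bases before it, with 25 or 26 bases between them. H2-DMb1 held the same pair on the plus strand of chromosome 17 between 34153087 and 34153144, before its RefSeq start but inside the GENCODE gene model. Searched on both strands, TGATTGG was found in 7.82% and GNAAC in 84.8% of the 32851 windows, and both at this spacing in 18 windows (0.0548%), H2-Eb2 among them. The 2 windows of H2-DMa and those of H2-DMb2 and H2-Ob did not hold the pair, and H2-Ab1, Cd74 and Ciita were not matched to a window.

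The order of the cell types was led by dendritic cells for the chains, for Cd74 and for H2-DM, and differed below them. Levels are the mean over the cells of a library of CP10K, the UMIs of a gene per 10000 UMIs of the cell. In the Apoe-/- libraries, Cd74 stood at 359 CP10K in dendritic cells, 236 in B cells, 118 in macrophages and 112 in monocytes. It stood at 3.73 in neutrophils, 0.726 in fibroblasts, 0.667 in endothelial cells, 0.416 in NK/T cells and 0.150 in smooth muscle cells. Fibroblasts and endothelial cells overlapped there between libraries, and other neighbours in this order did not. In the libraries labelled DKO the leukocytes kept their places, with 379 CP10K in dendritic cells, 273 in B cells, 226 in macrophages and 124 in monocytes. Endothelial cells then came next at 8.95 CP10K, above neutrophils (5.52), fibroblasts (2.14), NK/T cells (1.0) and smooth muscle cells (0.509). For H2-DMb1 in Apoe-/-, B cells (2.15 CP10K) came after monocytes (4.12) and macrophages (2.57), and both H2-DM chains were at 0 in neutrophils.

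H2-Oa had a narrower pattern. It stood at 3.67 CP10K in B cells and 3.35 in dendritic cells of the Apoe-/- libraries, which overlapped, and at 0.102 or less in each other type. It had 0 UMIs in 794 and 673 endothelial cells, which allows shares of up to 0.378% and 0.446%, and 0 in 410 and 1080 fibroblasts, which allows up to 0.732% and 0.278%. These limits are for cells with a UMI and do not bound the share of cells that express a gene this low. Ciita was sparse everywhere, as is usual for a regulator, with 20 to 36 UMIs a library in dendritic cells, 15 to 87 in macrophages, 4 to 10 in monocytes and 1 to 5 in endothelial cells.

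**Figure D1:**
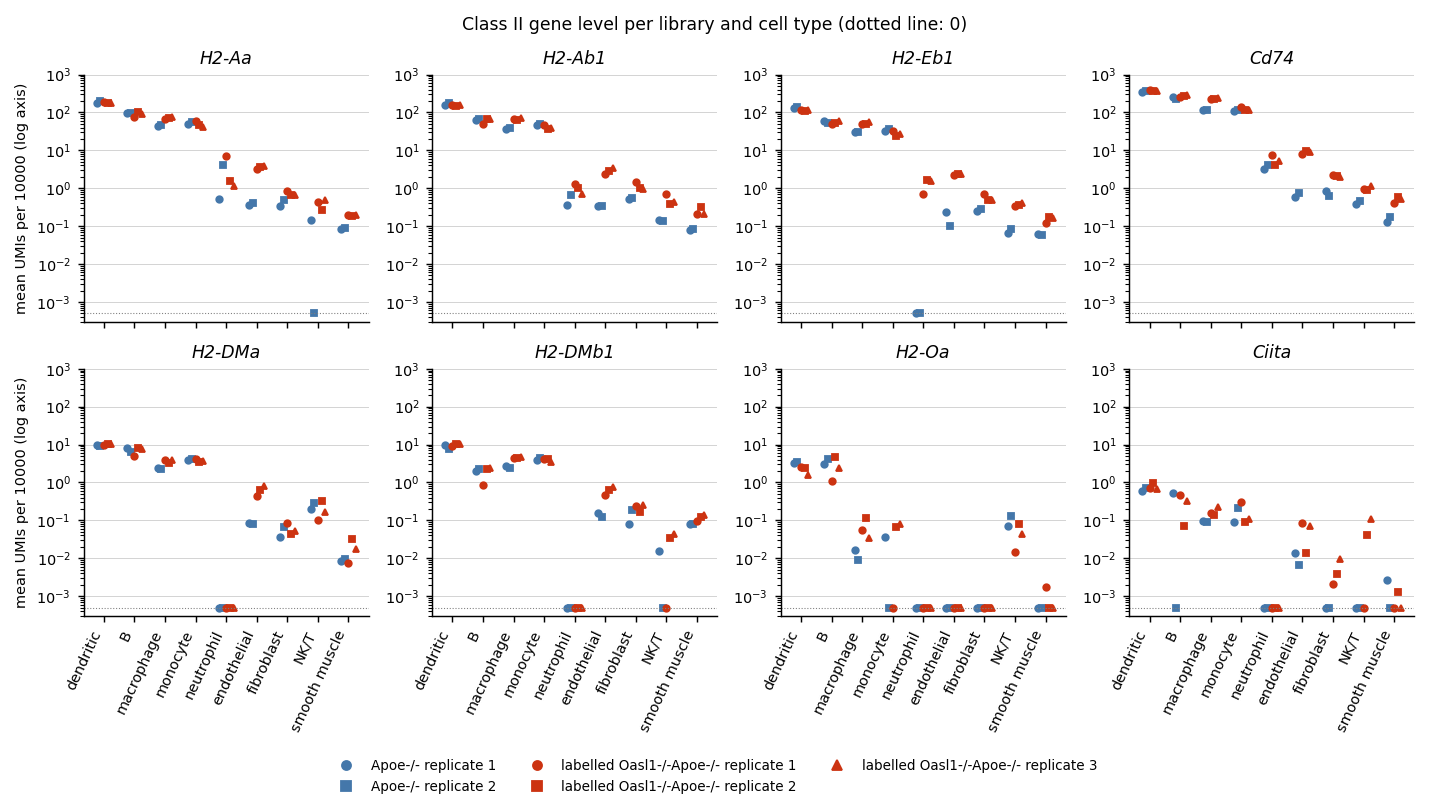
Level of each of the 8 genes (mean UMIs per 10000, log axis) in 9 gated cell types, with 1 point a library, blue for the 2 Apoe-/- libraries and red for the 3 labelled DKO; points on the dotted line are at 0. Dendritic and B cells lie highest for Cd74 in both groups (359 and 236 CP10K in Apoe-/-), the red points lie far above the blue ones in endothelial cells, and H2-Oa is at 0 in endothelial cells, fibroblasts and neutrophils.

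Endothelial cells showed the widest gap between the groups. All 3 chains, Cd74 and both H2-DM chains were higher in the libraries labelled DKO, from 4.35-fold for H2-DMb1 to 13.6-fold for H2-Eb1. Among the 9484 genes tested in this cell type, 1.92% were called higher (limma with Benjamini-Hochberg adjustment over all of them, threshold 0.05), against 6 of the 6 members tested. Their median log2 difference was 2.96, against -0.021 over all genes tested. These values rest on 397 and 397 cells in the Apoe-/- libraries and on 240, 229 and 204 in those labelled DKO, gated on endothelial genes such as Pecam1 and Cdh5 with at most 1 of 7 leukocyte genes present.

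Cd74 (ENSMUSG00000024610, plus strand of chromosome 18 from 60803848 to 60812652), the invariant chain, stood at 0.593 and 0.741 CP10K in the Apoe-/- libraries and at 8.16, 9.40 and 9.30 CP10K in those labelled DKO. The log2 difference was 3.66 (SE 0.115, limma adjusted p = 7.78e-30). H2-Aa, the I-A alpha chain, stood at 0.356 and 0.418 CP10K against 3.15, 3.70 and 3.85 CP10K. Its log2 difference was 3.05 (SE 0.141, limma adjusted p = 1.36e-22), and the groups lay well apart. H2-Ab1, its beta partner, went from 0.349 and 0.343 CP10K to 2.34, 2.82 and 3.49 CP10K, a log2 difference of 2.87 (SE 0.154, limma adjusted p = 4.48e-20). H2-Eb1, the I-E beta chain, had 0.240 and 0.0982 CP10K against 2.21, 2.37 and 2.33 CP10K, a log2 difference of 3.50 (SE 0.189, limma adjusted p = 4.48e-20). Transcripts of both I-A chains and of H2-Eb1 thus rose alongside those of Cd74.

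The peptide editor rose too. H2-DMa was at 0.0866 and 0.0785 CP10K against 0.441, 0.626 and 0.808 CP10K (log2 difference 2.31, limma adjusted p = 1.39e-09). H2-DMb1 was at 0.161 and 0.120 CP10K against 0.458, 0.629 and 0.749 CP10K (log2 difference 1.78, limma adjusted p = 2.46e-07). Ciita fell below the limit for testing (a mean of 0.05 CP10K), with 1 UMI in each Apoe-/- library and 5, 2 and 5 under the DKO label. These counts of Ciita were too few to test. Over pooled cells it was found in 0.252% (Wilson interval 0.0691 to 0.914%) and 1.49% (0.809 to 2.71%), intervals that cover counting error within these cells only.

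**Figure D2:**
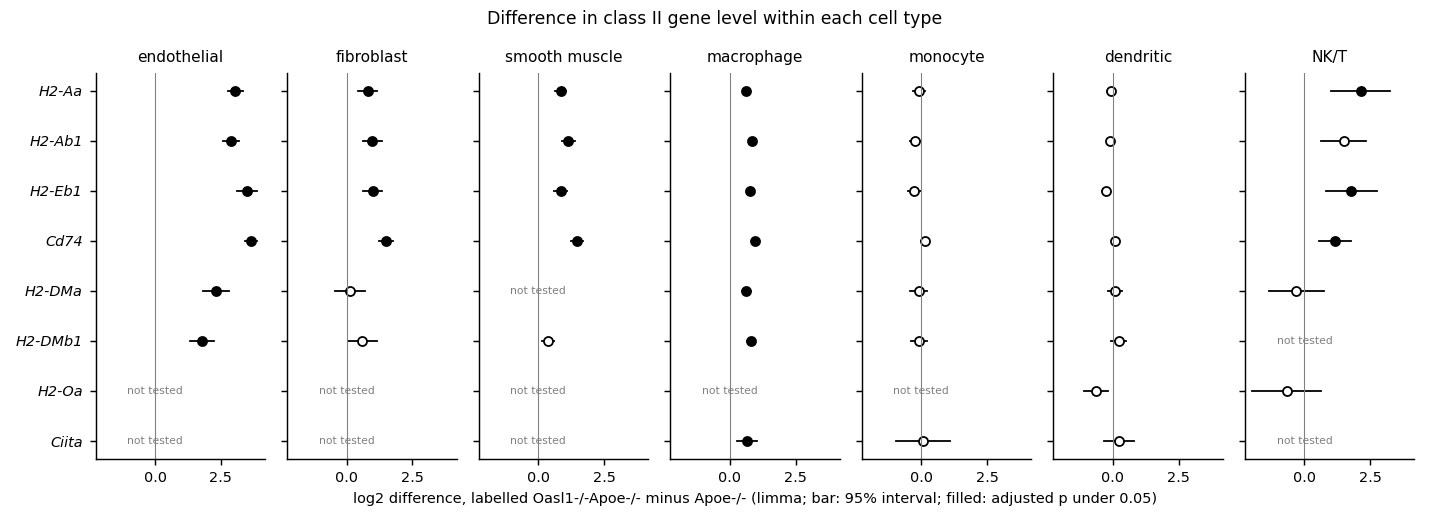
Log2 difference (labelled DKO minus Apoe-/-) of each gene within 7 cell types, with 95% intervals from limma; filled points have an adjusted p under 0.05. In endothelial cells the 6 tested genes lie between 1.78 and 3.66, in macrophages 7 lie between 0.625 and 0.942, and in monocytes and dendritic cells no point is filled.

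The rise was uneven over the endothelial cells. Of these, 11.3 and 12.1% held a Cd74 UMI in Apoe-/- and 48.8, 47.6 and 53.9% in labelled DKO libraries. The groups differed by 38.4 percentage points (exact permutation test over libraries, two-sided, p = 0.1, which is the smallest that 2 against 3 libraries can give, and 0.2 after adjustment over 54 comparisons). After each cell was thinned to 1000 UMIs, which leaves out 23 and 20 shallower cells, the pooled shares were 5.32% and 29.9%. NK/T cells, which should lack the gene, had a Cd74 UMI in 4.35% and 16.1% of their pooled cells at a median of 1728 and 1761.5 UMIs a cell, against a median of 2848.5 and 3471 UMIs in endothelial cells. Thinned to the same depth, the NK/T shares were 3.06% and 10.2%, below the endothelial shares in each group. Endothelial cells with at least 10 Cd74 UMIs numbered 1 and 0 in the Apoe-/- libraries and 24, 23 and 26 in those labelled DKO, where they held 68.0, 76.1 and 74.7% of the Cd74 UMIs of all endothelial cells. Cells with a single Cd74 UMI made up 19.6, 19.2 and 19.6% of the cells of these libraries, against 8.56 and 8.82%. The highest count in a cell was 11 and 9 UMIs against 64, 99 and 123.

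**Figure D3:**
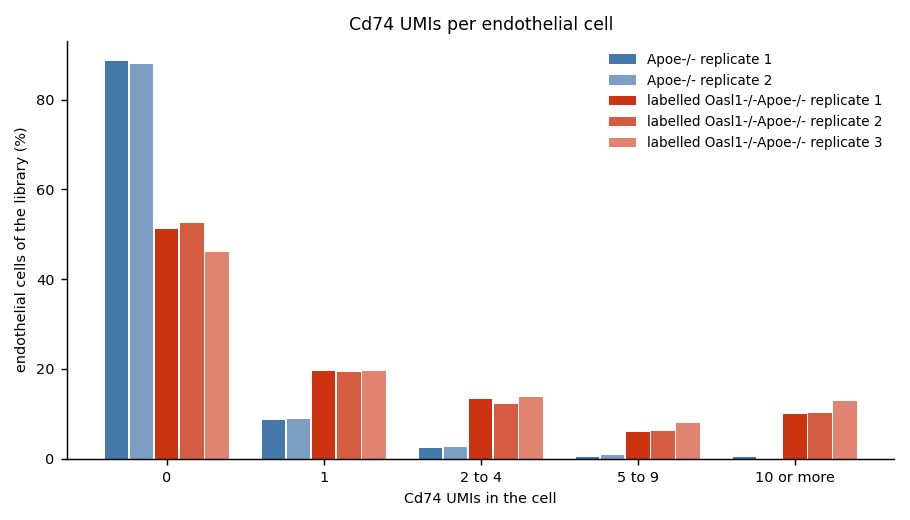
Share of the endothelial cells of each library (percent) by the number of Cd74 UMIs in the cell, with 1 bar a library, blue for Apoe-/- and red for labelled DKO. Cells with 0 Cd74 UMIs make up 88.7 and 87.9% of the Apoe-/- libraries and 46.1 to 52.4% of those labelled DKO, and 10 or more UMIs are found in 10 to 12.7% of the latter.

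The class II genes were found together in the same endothelial cells, as a description of the libraries labelled DKO pooled. Of the 336 cells with a Cd74 UMI, 60.4% also had an H2-Aa UMI, against 20.2% of the 337 cells without one. H2-Ab1 was found in 53.9% against 17.8%, H2-Eb1 in 50.3% against 15.4%, H2-DMa in 24.7% against 5.04% and H2-DMb1 in 25.9% against 11%. C1qa, a complement gene of macrophages, was found in 5.95% against 6.23%, although the cells with Cd74 were deeper (a median of 3791.5 against 3181 UMIs). The macrophage transcript was thus at a like share with and without Cd74, while Lyz2, the lysozyme of myeloid cells, was found in 23.8% against 16.3%. Dendritic cells held little C1qa, a mean of 0.312 CP10K in Apoe-/- and 0.284 in labelled DKO libraries. Their Cd74 stood at 359 and 379 CP10K. C1qa thus does not track RNA of dendritic cells, whose part in these shares was not tested.

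Both endothelial clusters showed the gap. In the larger one, led by Ptprb, Gkn3 and Adh7, Cd74 stood at 0.620 and 0.725 CP10K in the Apoe-/- libraries and at 8.79, 6.74 and 9.44 CP10K in those labelled DKO. In the smaller one, led by Nts, Ctla2a and Gpihbp1, it stood at 0.311 and 0.896 CP10K against 5.27, 18.9 and 8.72 CP10K, with 35 to 50 cells a library. Its share of the endothelial cells was 8.82 and 9.57% against 17.9, 21.8 and 19.1%. Cells gated on Plvap and Selp, genes of activated and venous-like endothelium, had 0.827 and 0.652 CP10K against 8.81, 11.8 and 10.4 CP10K of Cd74. In each of these subsets all 3 labelled DKO libraries lay above both Apoe-/- libraries. A capillary-like gate held only 4 to 10 cells a library, with 0 and 0 CP10K against 0.392, 2.55 and 1.51 CP10K.

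Whether leukocyte RNA loose in the droplets could set these values was examined with C1qa and Lyz2, which endothelial, smooth muscle and fibroblast cells are not known to make. The UMIs that such RNA would bring were taken as the C1qa UMIs of the cell type times the ratio of the gene to C1qa over all leukocytes of the same library. This takes the loose RNA to be mixed as in those leukocytes. RNA mainly from dendritic cells would be understated, since they were low in C1qa (0.312 and 0.284 CP10K) and Lyz2 (6.28 and 3.81 CP10K). In endothelial cells C1qa gave 7 and 9 UMIs against 17, 22 and 9, and it was itself called higher (log2 difference 1.30, limma adjusted p = 0.0325), as was Lyz2 (0.717, limma adjusted p = 0.0388). For Cd74 this gave 20.5 and 34.4 UMIs against 61.4, 83.4 and 35.6 UMIs, whereas 75 and 81 against 703, 861 and 884 UMIs were seen. The ratio of seen to set UMIs was 3.66 and 2.36 in the Apoe-/- libraries and 11.4, 10.3 and 24.9 in those labelled DKO. With Lyz2 as the reference, it was 1.73 and 2.51 against 8.29, 9.24 and 7.51. With C1qa as the reference, the log2 ratio was higher by 2.29 in the libraries labelled DKO (exact permutation p = 0.1, the smallest possible, 0.271 after adjustment over 19 comparisons). When this amount was subtracted from every gene and the fit repeated, 6 of 6 members stayed called with either reference. The share of all genes called in these fits is not given.

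Several leukocyte marker lists in the endothelial gate moved in the same direction, and their part in the result was not tested beyond these values. The summed level of the 7 leukocyte genes was 0.168 and 0.111 CP10K against 0.529, 0.469 and 0.593 CP10K, with Ptprc (CD45, on all leukocytes) at 0 in all 5 libraries. The 10 macrophage markers summed to 0.422 and 0.656 CP10K against 0.760, 0.602 and 0.740 CP10K, which overlapped. The 8 monocyte markers summed to 0.299 and 0.202 CP10K against 0.810, 1.02 and 0.729 CP10K, with Chil3 and Ccr2 at 0 in all 5 libraries. The 10 dendritic markers summed to 0.393 and 0.251 CP10K against 0.649, 0.848 and 0.762 CP10K, with Flt3, Cd209a, Clec9a, Xcr1 and Ccl22 at 0 in all 5. The 8 B cell markers summed to 0.263 and 0.445 CP10K against 0.231, 0.273 and 0.25 CP10K, with Cd79b, Ms4a1 and Pax5 at 0 in all 5. With only cells that held 0 of the 7 leukocyte genes, 6 of 6 members again were called, with the share of all genes not given.

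**Figure D4:**
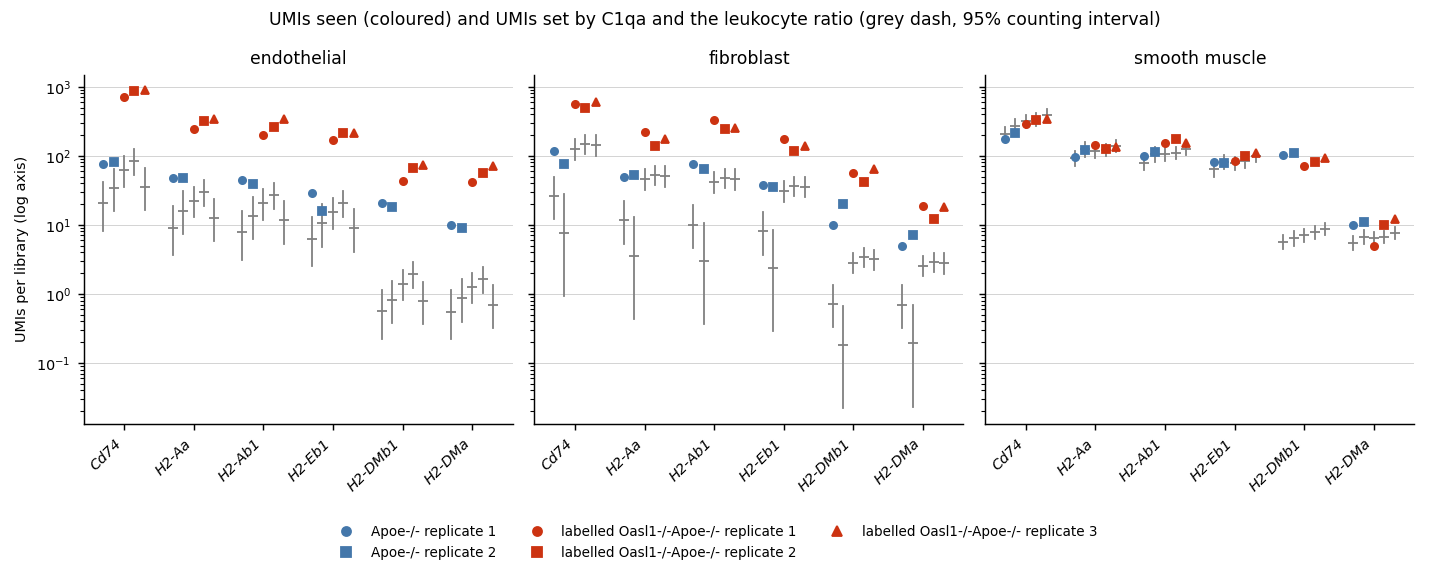
UMIs of 6 class II genes seen in each library (coloured points, log axis) and the UMIs set by C1qa and the leukocyte ratio (grey dashes with 95% counting intervals) in endothelial cells, fibroblasts and smooth muscle cells. In endothelial cells labelled DKO, Cd74 lies at 703 to 884 UMIs against 35.6 to 83.4 set by C1qa, while in smooth muscle cells Cd74 lies at 173 to 346 UMIs against 208 to 391 set by C1qa and H2-DMb1 lies above them.

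Smooth muscle cells gave a different picture. They had the lowest level of Cd74, 0.131 and 0.169 CP10K in the Apoe-/- libraries and 0.412, 0.599 and 0.515 CP10K in those labelled DKO, and the log2 difference of 1.47 was called (limma adjusted p = 2.25e-08). H2-Ab1 (1.14), H2-Eb1 (0.859) and H2-Aa (0.849) were called too, so that 4 of the 5 members tested were higher where 4.12% of the 8984 genes tested were. H2-DMb1 (0.373, limma adjusted p = 0.0523) missed the threshold and passed it without labelled DKO replicate 1 (0.477, limma adjusted p = 0.016) and with limma-voom (0.556, adjusted p = 0.0281), and H2-DMa, Ciita and H2-Oa were too low to test. C1qa rose in the same cells by a log2 difference of 0.940 (limma adjusted p = 1.82e-05) and Lyz2 by 0.448 (limma adjusted p = 0.000978).

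Here the UMIs seen of Cd74 and the chains were near or below those set by the leukocyte reference, except H2-Ab1. For Cd74 C1qa set 208 and 267 UMIs against 318, 341 and 391, where 173 and 215 against 288, 326 and 346 were seen, a ratio of 0.804 to 0.956. For H2-Aa the ratio was 0.963 to 1.25, for H2-Eb1 0.959 to 1.29 and for H2-Ab1 1.07 to 1.61. With Lyz2 it was 0.553 to 0.676 for Cd74, 0.651 to 0.816 for H2-Aa, 0.690 to 0.857 for H2-Eb1 and 0.809 to 1.07 for H2-Ab1. After subtraction Cd74 and the 3 chains fell below the limit for testing, and the 1 member still tested, H2-DMb1, was not called (log2 difference 0.31, limma adjusted p = 0.123, unadjusted p = 0.0129). H2-DMb1 stood apart, with 102, 108, 71, 80 and 92 UMIs seen where C1qa set 5.66 to 8.65, a ratio of 9.95 to 18.0 that was higher in Apoe-/- (18.0 and 16.9) than in labelled DKO libraries (9.95, 10.2 and 10.6). It was found in 3.65% and 5.48% of smooth muscle cells (library means), at a median of 4771 and 5016 UMIs a cell. In the libraries labelled DKO, H2-Aa was found in 11.5% of smooth muscle cells with a Cd74 UMI against 8.74% of those without one, and C1qa in 8.85% against 5.70%.

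Fibroblasts were read in the same way. Cd74 stood at 0.827 and 0.626 CP10K against 2.28, 2.13 and 2.0 CP10K (log2 difference 1.5, SE 0.123, limma adjusted p = 4.03e-06). H2-Eb1 (0.982), H2-Ab1 (0.980) and H2-Aa (0.792, limma adjusted p = 0.0130) were called, so that 4 of 6 members tested were higher where 2.72% of 9429 genes were. H2-DMb1 (0.589, limma adjusted p = 0.273) and H2-DMa (0.133, limma adjusted p = 0.853) were not called, although H2-DMb1 passed without Apoe-/- replicate 2 (1.01, limma adjusted p = 0.0371). Ciita had 0 and 0 UMIs against 1, 1 and 3. C1qa differed by 1.04 (limma adjusted p = 0.0574) and the 7 leukocyte genes summed to 0.110 and 0.163 CP10K against 0.400, 0.356 and 0.313 CP10K.

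The fibroblast counts exceeded the leukocyte reference in both groups. For Cd74 the ratio of seen to set UMIs was 4.44 and 9.81 in the Apoe-/- libraries and 4.51, 3.34 and 4.16 in those labelled DKO. The value of 9.81 rests on 2 C1qa UMIs, and without that library (Apoe-/- replicate 2) the group difference of the log2 ratio moved from -0.734 to -0.163. With Lyz2 the ratios were 3.51 and 3.70 against 2.76, 2.91 and 3.09. After subtraction, 2 of the 5 members still tested, Cd74 (1.41 with C1qa) and H2-Ab1 (0.887), stayed called with either reference. How many of all genes were called after subtraction is not given. In the cluster led by Clec3b, Gpx3 and Cygb, which also held the adventitial marker Pi16 among its leading genes, Cd74 was at 0 and 0.0384 CP10K in 50 and 48 cells of the Apoe-/- libraries and at 2.61, 4.18 and 1.35 CP10K in 77, 103 and 91 cells of those labelled DKO. In the larger cluster, led by Lum, Mmp3 and Sfrp2, it was at 1.08 and 0.819 CP10K against 2.19, 1.33 and 2.22 CP10K.

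Macrophages were higher in 7 of the 7 members tested where 8.38% of 7902 genes were higher. Cd74 stood at 118 and 118 CP10K against 220, 223 and 236 CP10K (log2 difference 0.942, SE 0.0458, limma adjusted p = 6.06e-09). The chains H2-Ab1 (0.852), H2-Eb1 (0.771) and H2-Aa (0.625) and the editor chains H2-DMb1 (0.793) and H2-DMa (0.632) were called. Ciita rose from 0.0942 and 0.0908 CP10K to 0.161, 0.142 and 0.225 CP10K (log2 difference 0.649, limma adjusted p = 0.0229). Ciita passed the limit for testing in macrophages, monocytes and dendritic cells, and was called in the first of these. The call was lost without labelled DKO replicate 3 (0.5, limma adjusted p = 0.124) and with the replicate block (0.5, 0.107). These 2 share their difference, since the block draws it from replicates 1 and 2 only. The call was also lost without the low-value filter (0.649, 0.0714) and with equal weight of the clusters (0.284, 0.678), and kept in the 11 other alternatives. H2-Oa had 2 and 1 UMIs against 13, 31 and 12 and was too low to test.

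The macrophage clusters differed in their class II levels, and their shares differed between the groups. The cluster led by Gpnmb, Lpl and Syngr1, which includes Trem2 and resembles lipid-loaded macrophages by these genes, held 77.6 and 77.6% of macrophages in the Apoe-/- libraries and 43.9, 43.7 and 41.9% in those labelled DKO. There Cd74 was at 93.9 and 87.3 CP10K against 112, 108 and 111 CP10K, and H2-Aa at 40.0 and 37.1 CP10K against 36.9, 36.7 and 39.8 CP10K. The cluster led by the chemokine genes Ccl12 and Ccl8, with Cxcl9 and Cxcl10 among its top genes, held 3.06 and 1.67% of macrophages (9 and 5 cells) against 35.0, 33.0 and 34.1% (205, 182 and 210 cells). It had the highest Cd74 of the 3 clusters in the libraries labelled DKO, 365, 353 and 369 CP10K, against 199 and 205 CP10K in Apoe-/-. The cluster led by Slamf9 and Cd83 had 200 and 226 CP10K against 204, 256 and 265 CP10K, which overlapped. Given equal weight to each cluster in every library, 2 of the 7 members stayed called, Cd74 (log2 difference 0.498) and H2-Ab1 (0.435). For that fit the share of all genes called is not given. In that fit the Ccl12 cluster of the Apoe-/- libraries again rests on 9 and 5 cells. Whether the cluster shares account for the macrophage gap was not tested.

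**Figure D5:**
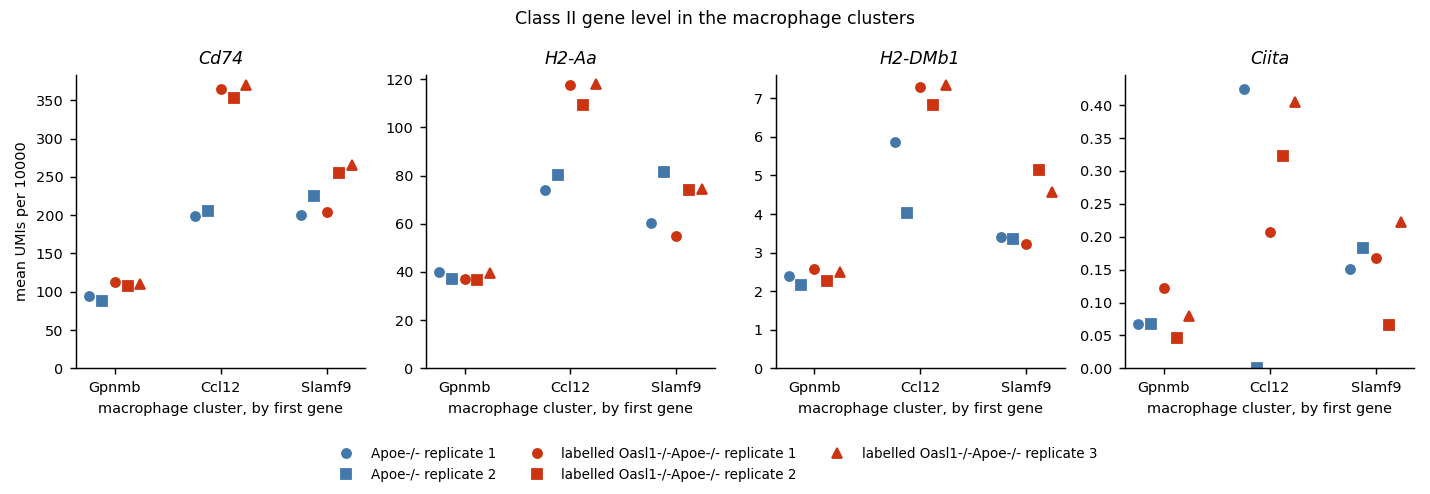
Level (mean UMIs per 10000) of Cd74, H2-Aa, H2-DMb1 and Ciita in the 3 macrophage clusters, named by their first gene, with 1 point a library, blue for Apoe-/- and red for labelled DKO. The red points of Cd74 in the Ccl12 cluster (353 to 369) lie above all others, while H2-Aa overlaps between the groups in the Gpnmb and Slamf9 clusters; the blue points of the Ccl12 cluster rest on 9 and 5 cells.

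Monocytes and dendritic cells showed no called difference. In monocytes 0 of 7 members passed the threshold by limma, where 1.86% of 7625 genes were called higher and 1.74% lower. At an unadjusted p under 0.05, for which the share of all genes is not given, 2 members differed. Cd74 stood at 110 and 113 CP10K against 137, 117 and 118 CP10K, a log2 difference of 0.142 with a 95% interval of -0.0177 to 0.302. H2-Eb1 (-0.259, interval -0.489 to -0.0296) and H2-Ab1 (-0.228, interval -0.439 to -0.0172) were those 2, both lower. With limma-voom on summed UMIs H2-Eb1 (-0.517, adjusted p = 0.000774), H2-Ab1 (-0.477) and H2-Aa (-0.331) were called lower. When cells were gated one by one without clusters, which left 26 to 50 monocytes a library, Cd74 (0.883), H2-Aa (0.884), H2-Ab1 (0.79), H2-Eb1 (0.896) and H2-DMa (0.764) were called higher. The direction in monocytes therefore depended on how the cells were gated.

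In dendritic cells 0 of 8 members passed the threshold by limma, where 1.23% of 7566 genes were called higher. At an unadjusted p under 0.05, for which the share of all genes is not given, 2 members differed. Cd74 stood at 350 and 368 CP10K against 380, 378 and 378 CP10K, a log2 difference of 0.0779 (interval -0.0260 to 0.182), which limma-voom called (0.0944, adjusted p = 0.0338). Those 2 were H2-Eb1, the I-E beta chain, and H2-Oa, both lower. H2-Eb1 stood at 130 and 143 CP10K against 113, 112 and 117 CP10K (log2 difference -0.262, limma adjusted p = 0.0564). The groups did not overlap, and the gene passed the threshold without Apoe-/- replicate 1 (-0.326, limma adjusted p = 0.00841) and with limma-voom (-0.256, adjusted p = 0.000854). H2-Oa stood at 3.24 and 3.46 CP10K against 2.59, 2.37 and 1.57 CP10K (-0.643, interval -1.08 to -0.202, limma adjusted p = 0.183). Within the gate for Ccr7 and Fscn1, genes of migratory dendritic cells, 1 Apoe-/- library had 143 CP10K of Cd74 in 15 cells and the other 355 in 20 cells, against 321 to 352 in those labelled DKO. B cells, with 13 to 40 cells a library, were not tested. Their Cd74 stood at 249 and 223 CP10K against 255, 269 and 296 CP10K, and their H2-Oa at 3.05 and 4.29 against 1.12, 4.58 and 2.44 CP10K, which overlapped.

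NK/T cells served as a type not known to make class II transcripts. Cd74 stood at 0.383 and 0.448 CP10K against 0.979, 0.873 and 1.15 CP10K (log2 difference 1.17, limma adjusted p = 0.0344), and H2-Aa (2.13, limma adjusted p = 0.0352) and H2-Eb1 (1.78, limma adjusted p = 0.0470) were also called, 3 of 6 members tested where 1.21% of 8209 genes were higher. They rest on 0 to 39 UMIs a gene and library. C1qa had 2, 1, 2, 8 and 10 UMIs there (log2 difference 1.47, limma adjusted p = 0.323). These calls were lost in part or whole under most other settings, down to 0 of 6 with the replicate number as a block and 0 or 1 of 6 without any 1 of the 5 libraries. The Cd74 level of NK/T cells labelled DKO, 1.0 CP10K, was below that of the endothelial cells of the same libraries, 8.95 CP10K.

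Whether the group difference itself differed between cell types was tested within library. Against macrophages, the endothelial difference was larger for Cd74 by 2.71 on the log2 scale (SE 0.231, limma adjusted p = 0.0129), for H2-Aa by 2.42 (limma adjusted p = 0.0146), for H2-Eb1 by 2.73 (limma adjusted p = 0.0450) and for H2-Ab1 by 2.02 (limma adjusted p = 0.0477). H2-DMa (1.68, limma adjusted p = 0.147) and H2-DMb1 (0.988, limma adjusted p = 0.197) did not pass, so 4 of 6 members were called where 0.0842% of 7129 genes were. Without any 1 of the 5 libraries 0 of them were called, at log2 differences for Cd74 of 2.57 to 2.86 and limma adjusted p of 0.0712 to 0.172. Smooth muscle cells against macrophages gave 0 of 5 members by limma, where 2.26% of 6821 genes were called higher. At an unadjusted p under 0.05, for which the share of all genes is not given, there were 2 members. Cd74 stood at 0.531 (interval 0.147 to 0.915). With a pseudocount of 0.2, H2-DMb1 (-0.572, limma adjusted p = 0.0013) and H2-Eb1 (-0.337, limma adjusted p = 0.0444) were called lower there. Fibroblasts against macrophages gave 0 of 6 by limma, where 0.0424% of 7072 genes were called higher. At an unadjusted p under 0.05, again without the share of all genes, there was 1 member. Cd74 stood at 0.563 (interval 0.0235 to 1.10), so a difference of that size was not shown at this depth.

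Over all cells of a library, which mixes level with the share of each cell type, 7 of 8 members were higher where 20.5% of 9836 genes were. Cd74 went from 23.3 and 23.5 CP10K to 68.7, 64.9 and 71.9 CP10K (log2 difference 1.54, limma adjusted p = 1.05e-08), and H2-Oa stayed at 0.0880 and 0.107 CP10K against 0.101, 0.107 and 0.0736 CP10K (-0.0412, interval -0.284 to 0.202). Macrophages made up 294 and 299 of the gated cells in the Apoe-/- libraries and 586, 551 and 616 in those labelled DKO. With the same shares of cell types in every library, 7 of 8 were called, and the share of all genes called there is not given. Cells of the endothelial gate gave 0.251 and 0.237% of all H2-Aa UMIs of the Apoe-/- libraries and 0.606, 0.846 and 0.779% of those labelled DKO.

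The other genes of the pathway were read from fixed lists. Of the peptide supply genes, 2 of 7 were higher in endothelial cells, where 1.92% of all genes tested were, the asparagine endopeptidase Lgmn (log2 difference 0.689) and cathepsin Ctsb (0.343). In macrophages 5 of 7 were lower, where 8.0% of genes were, with Ctsl (-1.07), Ctsd (-0.759), the lysosomal membrane protein Lamp1 (-0.484) and Ctsb (-0.345) among them. In monocytes Lgmn (-0.527) and Ctsb (-0.336) were lower, and in smooth muscle cells Ctss, the protease that trims the invariant chain and is abundant in macrophages, was higher (0.906). These macrophage values are over clusters whose shares differed between the groups, and the Gpnmb cluster, which counts Ctsd and Ctsb among its leading genes, was smaller in labelled DKO libraries. Within it Ctsl stood at 18.2 and 23.4 CP10K against 14.7, 13.3 and 15.4 CP10K. Ctsb stood at 143 and 134 CP10K against 137, 136 and 135 CP10K, which overlapped. In the Slamf9 cluster Ctsl (2.41 and 1.72 against 2.18, 1.95 and 2.56 CP10K) and Ctsd (8.65 and 12.2 against 10.5, 7.79 and 9.16 CP10K) overlapped too.

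Of the genes that carry the interferon gamma signal to Ciita, Irf8, a factor of myeloid cells, stood at 0.0104 and 0.0196 CP10K against 0.121, 0.105 and 0.0911 CP10K in endothelial cells. It passed the limit for testing only through the labelled DKO libraries, so no test is given. In macrophages Irf1 (0.454) and Irf8 (0.341) were called higher, and in smooth muscle cells Irf1 (0.355) and the receptor chain Ifngr2 (0.245). Of the RFX, NF-Y and Creb1 genes, whose proteins sit on the promoter boxes, 6 or 7 were tested in each of the 7 cell types. By limma 0 were called, where 1.21 to 8.38% of all genes tested were called higher. At such shares a list this short could not show a lack of change. In the whole aorta 1 of 7, Rfxap, was called higher, against 20.5% of all genes tested. Of the costimulation and turnover genes, Cd40 (1.20) and Cd86 (0.786) were higher in macrophages, 2 of 7 against 8.38% of all genes tested, and by limma 0 of 4 were called in endothelial cells, against 1.92%. H2-DMb2, H2-Ob and H2-Eb2 passed the limit for testing only in some leukocytes and the whole aorta, and 0 of them were called.

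The genes whose pattern over 45 cell type and library means was most like the mean of the 3 chains and Cd74, among 9569 genes ranked, were Cd83 (Pearson r = 0.937), Ly86 (0.935), Pkib (0.918), Fgd2 (0.913) and Cd180 (0.911). Of the other members, H2-DMa reached 0.935, H2-DMb1 0.920, Ciita 0.838 and H2-Oa 0.676. These correlations are a description, since the points share libraries and depth, and most of their range lies between leukocytes and other cells.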

How the data were processed

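Reads were aligned by the authors against mm10 in Cell Ranger 3.1.0. They kept cells with more than 200 genes and under 10% mitochondrial UMIs with Seurat 4.0.3 and removed doublets with DoubletFinder. In the table the fewest genes in a cell were 201 and the highest mitochondrial share was 9.99%. Each deposited value is on a natural log (ln) scale, as 1 plus UMIs per 10000 UMIs of the cell. They were taken back to CP10K, and whole UMIs were recovered for 100% of values (tolerance 0.01). No further doublet step was run.

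Cells were clustered without correction by library (2000 variable genes, 12 principal components, 20 neighbours, leidenalg 0.10.2, resolution 1). A cluster was named from at least 3 markers. Endothelial, smooth muscle and fibroblast cells needed 2 markers of their own and at most 1 of 7 leukocyte genes (Ptprc, Laptm5, Tyrobp, Fcer1g, Coro1a, Cd52 and Cd53), and leukocytes 1 of their own. These limits were set after the marker counts were seen, but not the class II values. The 8 genes and all lists were chosen with earlier results of these data known. The leukocyte reference used 736 to 1165 cells a library with at least 3 of the 7 leukocyte genes.

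The library was the replicate. Mean CP10K per cell type was tested as log2(mean + 0.05) with limma 3.58.1 (trend, R 4.3.3) for genes with a mean of at least 0.05 CP10K, in cell types with at least 20 cells in every library, with Benjamini-Hochberg adjustment over all genes tested. This scale understates changes of low genes. edgeR and DESeq2 were not run, since the deposited unit is a log value, and limma-voom on the recovered UMIs was an alternative. Single values were tested with the exact permutation test over the 10 splits of 5 libraries (scipy 1.17.1, python 3.11.15), two-sided. Intervals of shares are Wilson 95% intervals, and they, the counting intervals and the limits of a count of 0 (3 counts) cover counting error only. B cells, neutrophils and lymphatic endothelial cells had under 20 cells in a library and were not tested. The named genes were the 8 members, C1qa, Lyz2, Oasl1, up to 4 called genes of each list and type, and the 5 genes most like the chains. Pi16, Trem2, Cxcl9 and Cxcl10, leading genes of clusters, were named after their values were seen. Some listed results are not reported here. Alternatives covered the gate, the free RNA reference, pseudocount, low-value filter, centring, voom, ln means, the replicate block and leaving out each library. Scripts were tested on simulated data. Ifi30, H2-Ea and H2-Ea-ps were not analysed here.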

Additional observations from a re-analysis of the deposited data

Results flagged for a closer look

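Of the class II genes, 4 differed between cell types in their group difference, by a test of that difference within library (limma, adjusted over all genes): the log2 difference of labelled DKO minus Apoe-/- was larger in endothelial cells than in macrophages by 2.73 for H2-Eb1, 2.71 for Cd74, 2.42 for H2-Aa and 2.02 for H2-Ab1. In every library the macrophage level was far above the endothelial level, and none of the 4 stayed past the threshold when any 1 library was left out.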

How the results depend on the processing

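The count of members called higher in endothelial cells was 6 under all 17 alternatives, and in the whole aorta it was 7 under all 13. Shares of all genes called under the alternatives are not given. With free RNA subtracted, smooth muscle cells gave 0 with C1qa and 0 with Lyz2, and fibroblasts 2 and 2. Macrophages gave 2 with equal weight of their clusters. Monocytes gave 5 when cells were gated one by one without clusters, and dendritic cells 1 with limma-voom and 1 with the mean of ln values. NK/T cells gave 0 with the smaller pseudocount, with limma-voom, with the replicate block and with clusters not gated by cell, 1 without the low-value filter, with median centring and with ln means, and 0 to 1 when 1 library was left out. The 4 differences between endothelial cells and macrophages became 2 with C1qa subtracted, 2 with the replicate block and 0 to 0 when 1 library was left out. The log2 difference of seen over set Cd74 UMIs in smooth muscle cells turned from 0.161 to -0.00666 with Lyz2 as reference. The cause of these shifts was not tested. Deviations from the group mean correlated at 0.0148 and 0.0429 between same-number libraries. With 2 Apoe-/- libraries these deviations mirror each other, so the values cannot show whether replicate numbers pair the libraries. The block changed no other count by over 1.5 times. Of the single-gene values, 429 kept their call and direction and 75 lost the call without turning. The depth of Ciita, 1 to 5 UMIs a library in endothelial cells, limits what can be said of it.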
